A study of Mus musculus with 5 samples.

Results

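A panel of 46 autophagy and lysosome genes was followed in natural killer (NK) cells of mouse spleen after CRISPR knockout of Fli1. The genes were picked by symbol for their place in the pathway, with earlier results of these data known. All 46 were found among the 56691 gene IDs of the count table. FLI1 is a transcription factor with an ETS domain. RNA-seq by probe capture was deposited for 3 libraries labelled Fli1 KO and for 2 control libraries labelled NTC. The labels give no strain, age, sex or culture for either group, and the series title ties Fli1 to protein homeostasis under nutrient stress. They also do not say whether the libraries of a group came from separate animals, so p-values here measure only the spread between these samples.

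Autophagy is the route by which a cell encloses proteins and organelles in a double membrane and delivers them to the lysosome for breakdown. The ULK1 kinase complex and the lipid kinase complex around Beclin 1 start the membrane, lipid transfer proteins extend it, and a conjugation system like that of ubiquitin attaches small ATG8 proteins to it. Cargo receptors bind both the cargo and ATG8, the vesicle fuses with a lysosome acidified by a proton pump, and hydrolases digest the content. The transcription factors TFEB, TFE3 and MITF bind E-box sequences near many lysosomal genes and raise their transcription when nutrients are short.

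The libraries held 4718390 to 5643791 counts. Levels are given as TMM-scaled CPM, a gene's counts relative to the size of its library, and 30580 genes had enough counts to be tested. Background was the density of counts on olfactory and vomeronasal receptor genes, which NK cells do not use, and 7603 tested genes lay over 3 times it. Fli1 RNA was at 390, 320 and 361 CPM in Fli1 KO 1 to 3 and at 322 and 279 CPM in NTC 1 and 2 (log2 fold change 0.25, SE 0.14, edgeR adjusted p = 0.641). The groups overlapped there, and since a small edit can leave the transcript in place, RNA summed over the gene is no check of the labels. All 10 NK cell markers lay over 3 times background. Their summed level was 8955 to 13311 CPM in Fli1 KO and 9568 and 6462 CPM in NTC, most of it Gzma, Gzmb and Prf1. Of these 10, 2 (Prf1 and Il2rb) lay higher and 3 (Ncr1, Klrk1 and Tbx21) lower in every Fli1 KO library than in both NTC libraries. Among all genes over 3 times background 26.3% lay higher in this way and 7.8% lower. None of the B cell, T cell, neutrophil or red cell markers that could be tested lay over 3 times background. Of 10 macrophage and dendritic cell markers 3 did. That list summed to 369 to 381 CPM in Fli1 KO and to 385 and 266 CPM in NTC, most of it Itgax, and without Itgax to 60.1 to 72.0 CPM and to 64.7 and 56.0 CPM. Of its 9 tested genes 2 lay higher and 3 lower in every Fli1 KO library than in both NTC libraries, beside 11.9% and 13.7% of all tested genes. NTC 1 and NTC 2 were the most unlike pair of libraries (chi-square per degree of freedom of their counts 8.42, against 1.94 to 6.78 for the other pairs). A single gene, Gm10800, held from 10.3% to 19% of the counts of a library and was not left out there. Its part in these chi-square values was not tested. No marker on these lists was called by edgeR, and none was at 0 in every library.

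Across the panel, 1 of the 46 genes was called at an adjusted p under 0.05, by edgeR's quasi-likelihood test with Benjamini-Hochberg adjustment over all 30580 genes. It was Sgsh, which encodes a lysosomal sulfatase of heparan sulfate breakdown and was 1.97-fold lower in Fli1 KO. Calls made up 0.546% of all tested genes in either direction, 0.458% (140 genes) higher and 0.0883% (27 genes) lower. Among genes over 3 times background 1.71% were called higher and 0.289% lower. With library size alone in place of TMM the split was 92 higher and 71 lower. Library size takes in the counts of Gm10800, from 10.3% to 19% of a library, so that scaling also follows this gene. A further 7 panel genes had an unadjusted p under 0.05 without a call. They were Lamp1, whose mean was lower in Fli1 KO, and Atg2a, Atg3, Atg5, Atg10, Bnip3l and Atp6v0e, whose means were higher. The resulting 8 of 46 (17.4%) stand beside 8.94% of all tested genes and 18.3% of genes over 3 times background at that p. The 6 with higher means stand beside 5.23% and 15.4% in that direction. Of the panel, 37 genes lay over 3 times background.

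The log2 fold change was positive for 32 panel genes and negative for 14, with a median of 0.09 and a range from −0.98 to 0.64. The value was positive for 47.6% of all tested genes and for 70.5% of those over 3 times background. The median was −0.02 over all tested genes and 0.11 over those above 3 times background. The panel's median took the other sign, at −0.04, with library size alone, a scaling that moved the median of all genes from −0.02 to −0.14. It was −0.03 for the 37 panel genes in a fit on genes over 3 times background, where the median of all genes was −0.01. The SE of a single log2 fold change ran from 0.13 to 0.27. The 3 Fli1 KO libraries lay above both NTC libraries for 11 panel genes (23.9%) and below both for 4 (8.7%). Groups were separated in this way for 11.9% (higher) and 13.7% (lower) of all tested genes, and for 26.3% and 7.8% of genes over 3 times background. In RNA from bulk cells, fewer cells of a type and less RNA per cell cannot be told apart.

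**Figure D1:**
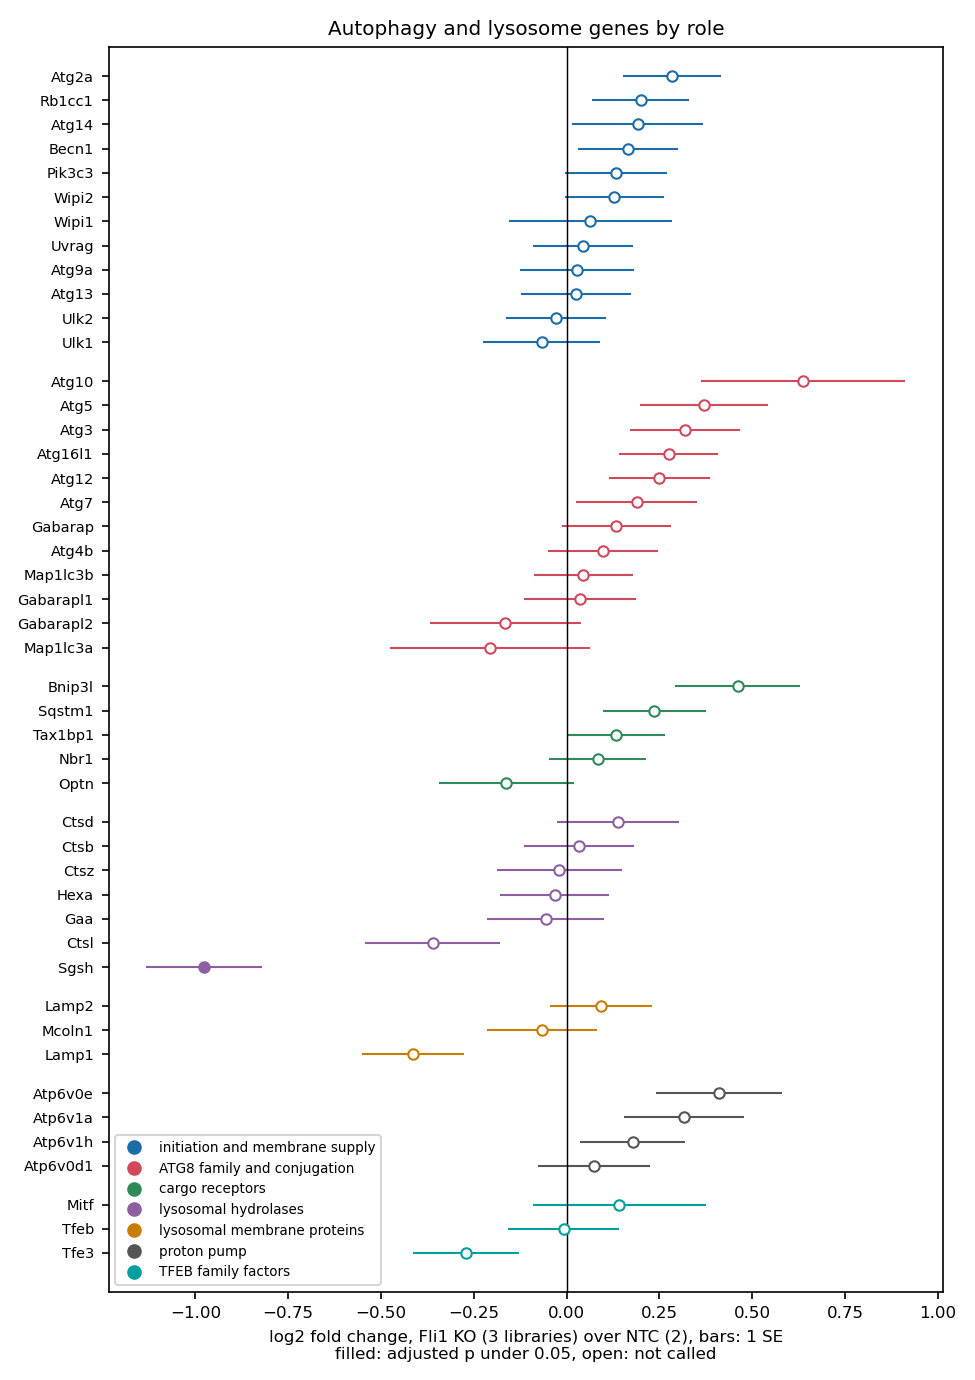
Log2 fold change of each of the 46 genes, Fli1 KO (3 libraries) over NTC (2 libraries), grouped by role, with bars of 1 SE. The single filled point is Sgsh at −0.98, the only gene of the panel called, and the largest positive value is that of Atg10 at 0.64.

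Stretches before the RefSeq start of 6 genes of the panel are shown here, since the E-box CACGTG is the core of the site that TFEB, TFE3 and MITF bind. They are RefSeq sequences on GRCm38.p6, written 5′ to 3′ on the gene's strand, and capitals mark each CACGTG. Sgsh and Lamp1 are the panel genes with the smallest p, and the other 4 carry the longer TFEB-type palindrome TCACGTGA.
Sgsh, chr11:119355511-119355570, minus strand: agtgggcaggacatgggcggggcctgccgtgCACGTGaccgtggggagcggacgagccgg
Lamp1, chr8:13159061-13159160, plus strand: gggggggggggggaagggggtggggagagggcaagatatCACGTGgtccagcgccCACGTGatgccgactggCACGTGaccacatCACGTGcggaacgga
Mcoln1, chr8:3500419-3500486, plus strand: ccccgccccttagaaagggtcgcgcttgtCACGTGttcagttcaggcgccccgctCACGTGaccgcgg
Ctsd, chr7:142387908-142387937, minus strand: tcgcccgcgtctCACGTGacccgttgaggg
Atg3, chr16:45158729-45158814, plus strand: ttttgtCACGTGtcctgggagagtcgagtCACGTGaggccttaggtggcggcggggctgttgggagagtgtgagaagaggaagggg
Atp6v1a, chr16:44139310-44139409, minus strand: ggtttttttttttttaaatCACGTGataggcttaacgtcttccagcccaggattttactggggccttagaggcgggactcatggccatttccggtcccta
Lamp1 held 4 copies, whose first bases lay at −61, −45, −28 and −15, counted back from −1 for the base before the RefSeq start. Sgsh held 1, at −29. GENCODE places the start of Lamp1 at the same base but that of Sgsh 26 bases further upstream, so that this E-box spans the GENCODE start. Its starts of Mcoln1, Ctsd, Atg3 and Atp6v1a also lie upstream of those used here, by 62, 211, 44 and 446 bases. Of the printed bases, 26 of 60 for Sgsh, 30 of 68 for Mcoln1, 30 of 30 for Ctsd and 30 of 86 for Atg3 therefore fall in a GENCODE exon of the gene, and 14 for Sgsh in Slc26a11. A promoter window was at hand for 37 of the 46 genes, and the letters were searched on both strands of the 250 bases before the RefSeq start. CACGTG was found in 10 of those 37 (27.0%), namely Atg3, Atg5, Atg7, Atp6v1a, Ctsd, Ctsl, Gaa, Lamp1, Mcoln1 and Sgsh, and in 6.86% of 27025 genes. TCACGTGA, which contains CACGTG, was found in 4 of the 37 (10.8%) and in 0.907% of all genes. CCGGAA, the core of many ETS factor sites, was found in 5 of the 37 (13.5%) and in 13.6% of all genes. The 5 were Atg3, Atp6v0d1, Atp6v1a, Gabarapl2 and Wipi2, with log2 fold changes positive for 4 and negative for 1. Their median was 0.13, against 0.04 for the panel genes with a window but without CCGGAA. The 10 genes with CACGTG lay on both sides of 0. Their log2 fold changes were positive for 5 and negative for 5, from −0.98 to 0.37, with a median of 0.04 against 0.06 for the panel genes without it.

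Genes were set side by side per kb of exon, taking all annotated exons of a gene together. It was not tested whether this makes levels comparable between genes under probe capture. By that measure, Ctsd stood highest at 130 CPM per kb over the 5 libraries. It encodes cathepsin D, the main aspartic protease of lysosomes. Sqstm1 followed at 93.6 CPM per kb, then Gabarap at 41.1, Lamp1 at 34.9, Gabarapl1 at 28.3 and Bnip3l at 26.5. The lowest were Ctsl at 2.20 and Mitf at 1.83 CPM per kb. The genes under 3 times background were Atg14, Atg9a, Wipi1, Atg7, Atg10, Ctsl, Mcoln1, Tfe3 and Mitf, and a share of the counts of these 9 can be background.

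**Figure D2:**
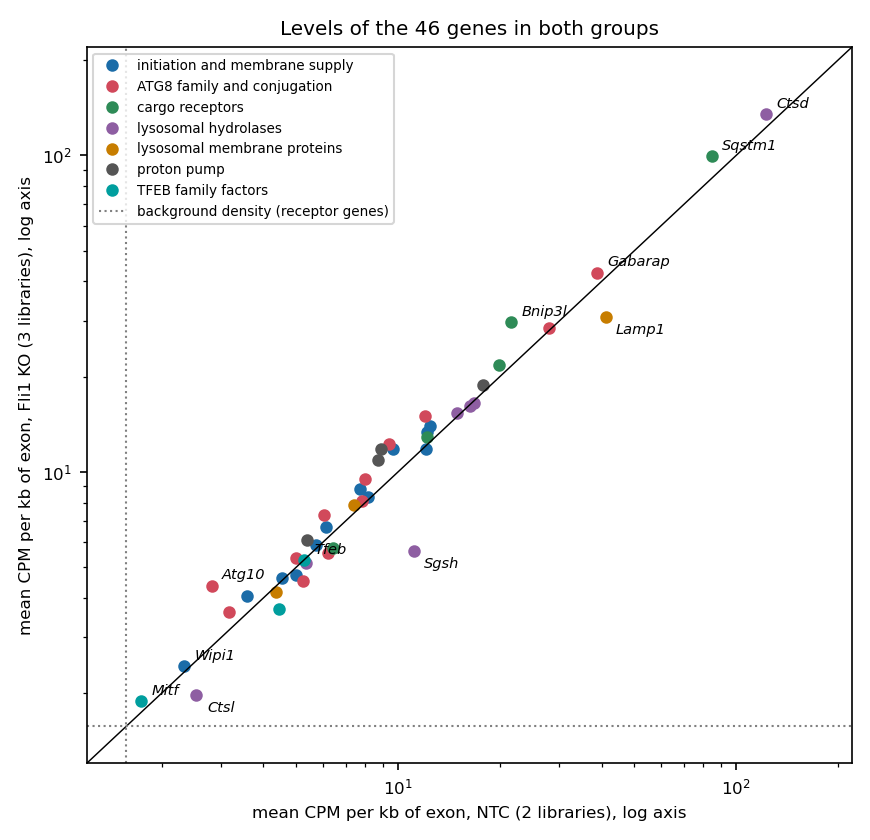
Mean CPM per kb of exon of the 46 genes in NTC (horizontal, 2 libraries) and Fli1 KO (vertical, 3 libraries), both on log axes, with dotted lines at the background density. Points run close to the diagonal from Mitf to Ctsd, and Sgsh lies below it at 11.1 CPM per kb in NTC and 5.63 in Fli1 KO.

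Among the 12 genes of initiation and membrane supply, none was called by edgeR, DESeq2 or limma-voom, and 1 had an unadjusted p under 0.05 by edgeR. The log2 fold change was positive for 10 and negative for 2, with a median of 0.10 that became −0.03 with library size alone. Atg2a, which encodes a lipid transfer protein that feeds the growing membrane, was at 88.8, 90.6 and 92.5 CPM in Fli1 KO 1 to 3 and at 71.4 and 77.5 CPM in NTC 1 and 2. All 3 Fli1 KO libraries were above both NTC libraries. The means were 90.6 ± 1.86 (SD, n = 3) and 74.5 ± 4.29 CPM (SD, n = 2), which gave a log2 fold change of 0.28 (SE 0.13, edgeR adjusted p = 0.532). Becn1, which encodes the scaffold of the lipid kinase complex, had the highest level per kb of these 12. It was at 102, 91.5 and 103 CPM in Fli1 KO and at 94.5 and 81.7 CPM in NTC, and the groups overlapped. The means were 98.9 ± 6.40 (SD, n = 3) and 88.1 ± 9.06 CPM (SD, n = 2), which gave a log2 fold change of 0.16 (SE 0.13, edgeR adjusted p = 0.782).

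Ulk1 and Ulk2 encode the kinases that start the process. Ulk1 was at 26.6 to 33.2 CPM in Fli1 KO and at 30.2 and 34.5 CPM in NTC. Ulk2 was at 64.9 to 76.9 CPM against 72.6 and 71.7 CPM, and Atg13, which bridges the ULK complex, at 32.8 to 38.7 CPM against 34.8 and 36.6 CPM. The groups overlapped for all 3. Rb1cc1 encodes FIP200, the scaffold of the same complex. Its 3 Fli1 KO libraries (130, 133 and 127 CPM) lay above NTC (107 and 119 CPM), with a log2 fold change of 0.20 (edgeR adjusted p = 0.705). Atg14, which directs the lipid kinase to autophagy, was also separated, at 16.9 to 18.2 CPM against 14.7 and 16.1 CPM. The log2 fold change was 0.13 for Pik3c3, the lipid kinase itself, and 0.04 for Uvrag, its alternative partner. It was 0.03 for the scramblase gene Atg9a, and 0.06 and 0.13 for Wipi1 and Wipi2, whose products read the lipid mark. Groups overlapped for these 5.

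The ATG8 genes themselves and the enzymes that attach their products are described apart. Among the 5 ATG8 genes no group separated, and log2 fold changes ran from −0.21 to 0.13 with a median of 0.04, which was −0.09 with library size alone. Gabarap had the highest level per kb, at 91.6, 68.0 and 76.4 CPM in Fli1 KO and at 76.8 and 66.2 CPM in NTC. NTC 1 exceeded Fli1 KO 2 and Fli1 KO 3 there. The means were 78.6 ± 12 (SD, n = 3) and 71.5 ± 7.48 CPM (SD, n = 2), and the log2 fold change was 0.13 (SE 0.15, edgeR adjusted p = 0.852). Per kb, Gabarap made up 45.1% ± 4.75 (SD, n = 2) of the summed family in NTC and 47.7% ± 1.69 (SD, n = 3) in Fli1 KO. Gabarapl1 made up 32.4% and 31.9%, Map1lc3b 9.11% and 9.14%, Gabarapl2 7.22% and 6.19%, and Map1lc3a 6.11% and 5.09%. The order of the 5 was the same in both group means. These shares depend on the exon lengths used, 7517 bases for Map1lc3b and 2013 for Gabarapl1. Undivided, the means of these genes were 60.7 and 57.5 CPM in Fli1 KO, and 58.8 and 56.1 CPM in NTC. Map1lc3b, whose product is the usual autophagosome marker LC3B, was at 61.5, 61.7 and 58.8 CPM against 60.0 and 57.7 CPM.

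All 7 genes of the conjugation enzymes and their partners had a positive log2 fold change, from 0.10 to 0.64, with a median of 0.28 that was 0.15 with library size alone and, for the 5 of them in the fit on genes over 3 times background, 0.16. None was called by edgeR, DESeq2 or limma-voom, and 3 had an unadjusted p under 0.05 by edgeR. For Atg10 DESeq2 gave no adjusted p, so it could not call that gene. Of the 7, 5 were separated with Fli1 KO higher, beside 11.9% of all tested genes. The share was 26.3% among genes over 3 times background, a set without Atg7 and Atg10, which were both among the 5. Atg10 encodes the enzyme that passes ATG12 to ATG5. It was at 5.45, 8.03 and 9.07 CPM in Fli1 KO and at 4.85 and 4.80 CPM in NTC, from 23 to 45 counts a library, so every Fli1 KO library was higher. The means were 7.51 ± 1.86 (SD, n = 3) and 4.83 ± 0.0352 CPM (SD, n = 2), with a log2 fold change of 0.64 (SE 0.27, edgeR adjusted p = 0.484), and the gene lay at 2.39 times background. Atg3 encodes the enzyme that attaches ATG8 to lipid, and was at 51.4, 44.2 and 47.0 CPM in Fli1 KO and at 42.1 and 33.8 CPM in NTC. The groups were separated. The means were 47.5 ± 3.64 (SD, n = 3) and 38.0 ± 5.86 CPM (SD, n = 2), which gave a log2 fold change of 0.32 (SE 0.15, edgeR adjusted p = 0.536).

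ATG5 is the acceptor of ATG12 and, with ATG16L1, forms the complex that places ATG8 on the membrane. Atg5 was at 32.7, 24.6 and 29.0 CPM in Fli1 KO and at 24.6 and 19.6 CPM in NTC, where Fli1 KO 2 and NTC 1 met. The means were 28.8 ± 4.04 (SD, n = 3) and 22.1 ± 3.52 CPM (SD, n = 2), which gave a log2 fold change of 0.37 (SE 0.17, edgeR adjusted p = 0.535). Atg16l1 was at 70.2, 69.2 and 71.5 CPM against 60.5 and 55.6 CPM, and Atg12 at 80.7, 68.0 and 71.3 CPM against 62.2 and 61.0 CPM. Both were separated, with log2 fold changes of 0.28 and 0.25. Atg7, which encodes the activating enzyme of both conjugation arms, was separated as well, at 22.7 to 27.0 CPM against 21.8 and 22.4 CPM. Atg4b, which encodes a protease that trims ATG8 proteins, overlapped (log2 fold change 0.10).

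Of 5 cargo receptor genes, 4 had a positive log2 fold change and none was called by edgeR, DESeq2 or limma-voom, while 1 had an unadjusted p under 0.05 by edgeR. The median was 0.13, and 0.00 with library size alone. Bnip3l encodes NIX, a receptor on mitochondria whose gene responds to low oxygen. It was at 136, 96.8 and 111 CPM in Fli1 KO and at 98.8 and 67.5 CPM in NTC. NTC 1 exceeded Fli1 KO 2, so the groups overlapped. The means were 115 ± 19.9 (SD, n = 3) and 83.1 ± 22.2 CPM (SD, n = 2), with a log2 fold change of 0.46 (SE 0.17, edgeR adjusted p = 0.361). The value depended on the NTC library used: it was 0.78 without NTC 1 (edgeR adjusted p = 0.00155) and 0.22 without NTC 2.

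Sqstm1 encodes p62, the receptor for ubiquitinated proteins, and had the highest CPM per kb of the receptor genes. It was at 367, 312 and 324 CPM in Fli1 KO and at 269 and 299 CPM in NTC, with every Fli1 KO library higher. The means were 334 ± 28.9 (SD, n = 3) and 284 ± 20.9 CPM (SD, n = 2), and the log2 fold change of 0.24 (SE 0.14, edgeR adjusted p = 0.651) was not called. Tax1bp1, a related receptor, was also separated, at 207 to 234 CPM against 204 and 193 CPM. Nbr1, which acts together with p62, and Optn, which serves in clearance of mitochondria and bacteria, overlapped at log2 fold changes of 0.08 and −0.16.

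Among the 7 lysosomal hydrolase genes, 2 had a positive and 5 a negative log2 fold change. The median was −0.03, and −0.16 with library size alone. Sgsh (ENSMUSG00000005043, GRCm38 chr11:119343425-119355536, minus strand) fell in Fli1 KO. It was at 23.0, 27.1 and 24.4 CPM in Fli1 KO 1 to 3 and at 42.8 and 55.4 CPM in NTC 1 and 2. Every Fli1 KO library lay below both NTC libraries, from 114 to 152 counts against 247 and 265. The means were 24.8 ± 2.09 (SD, n = 3) and 49.1 ± 8.86 CPM (SD, n = 2), and the background for its exon length was 6.93 CPM. The log2 fold change was −0.98 (SE 0.16, edgeR adjusted p = 0.00201), and DESeq2 (adjusted p = 0.00189) and limma-voom (adjusted p = 0.00272) called it too. Without Fli1 KO 1 the value was −0.92 and the adjusted p 0.0781 by edgeR, and without Fli1 KO 3 they were −0.95 and 0.0548. With any other single library left out Sgsh was still called, at values from −1.13 to −0.78.

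Sgsh starts head to head with Slc26a11, a gene of the anion transporter family, with 21 bases between the GENCODE starts on opposite strands. Slc26a11 was at 15.7, 26.6 and 18.3 CPM in Fli1 KO and at 26.2 and 35.3 CPM in NTC. Fli1 KO 2 exceeded NTC 1, and its log2 fold change of −0.59 (SE 0.20, edgeR adjusted p = 0.300) was not called. Card14, on the opposite strand, covers 955 of the 4414 exon bases of Sgsh (21.6%). It lay at 0.837 times background, with 6.25 to 6.60 CPM in Fli1 KO and 5.55 and 5.64 CPM in NTC. No source used here gives the strand setting of the counts, so reads of such a pair cannot be told apart where exons overlap. Exons of 18 of the 46 genes overlap those of another gene, the largest share being 43.9% of Becn1 by Cntd1.

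The remaining 6 hydrolases were not called. Ctsd was at 372, 267 and 313 CPM in Fli1 KO and at 339 and 237 CPM in NTC, a spread within each group wider than the gap between the means of 317 ± 52.6 (SD, n = 3) and 288 ± 72.3 CPM (SD, n = 2). Its log2 fold change was 0.14 (SE 0.16, edgeR adjusted p = 0.869). Ctsl, another cathepsin protease gene, was at 12.9, 13 and 12.5 CPM against 16.8 and 16.1 CPM. It was separated with a log2 fold change of −0.36 (edgeR adjusted p = 0.583), at 1.40 times background. Ctsb and Ctsz, both of cysteine cathepsins, had log2 fold changes of 0.03 and −0.02. Gaa, whose product breaks down glycogen, and Hexa, whose product degrades gangliosides, had values of −0.06 and −0.03. Groups overlapped for these 4.

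**Figure D3:**
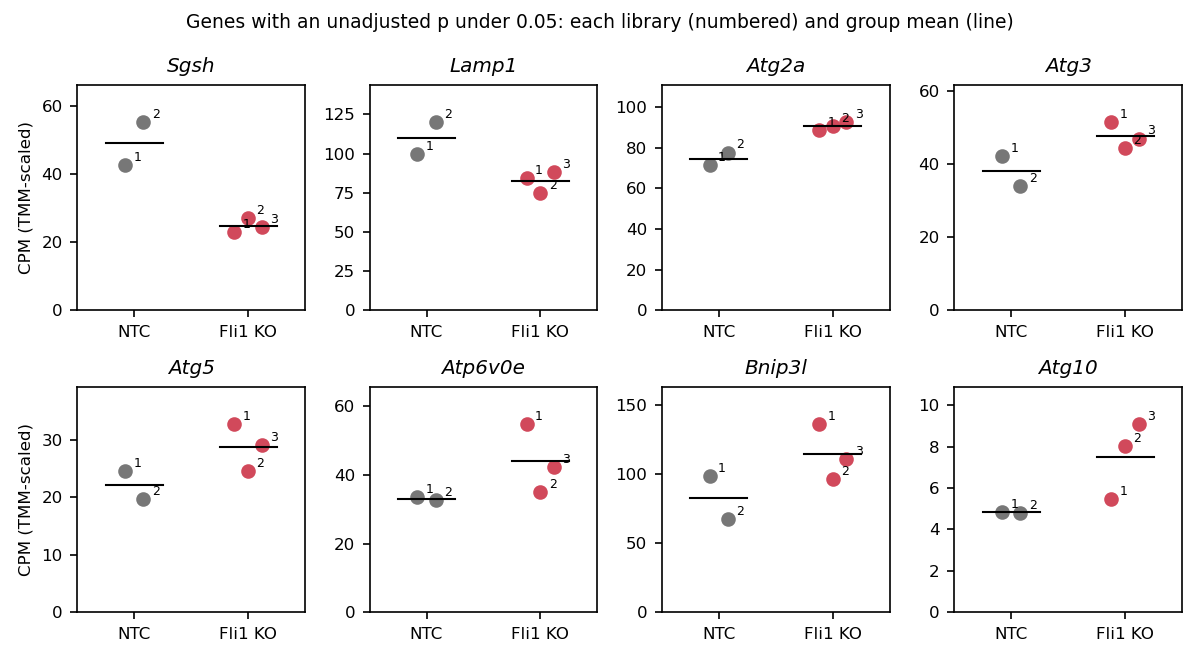
TMM-scaled CPM of the 8 genes with an unadjusted p under 0.05, each library as a numbered point (NTC grey, Fli1 KO red) with a line at the group mean and axes from 0. Sgsh and Lamp1 lie lower in all 3 Fli1 KO libraries, and the groups touch or overlap for Atg5 and Bnip3l.

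Of 3 lysosomal membrane genes, Lamp1 (ENSMUSG00000031447, GRCm38 chr8:13159161-13175338, plus strand) had the smallest p and the highest level per kb. None of the 3 was called by edgeR, DESeq2 or limma-voom, and 1 had an unadjusted p under 0.05 by edgeR. LAMP1 is a main glycoprotein of the lysosomal membrane, and in NK cells its arrival at the surface as CD107a marks release of cytotoxic granules. Lamp1 was at 84.1, 74.6 and 88.5 CPM in Fli1 KO and at 99.7 and 120 CPM in NTC. Every Fli1 KO library was lower, with means of 82.4 ± 7.12 (SD, n = 3) and 110 ± 14.4 CPM (SD, n = 2). The log2 fold change of −0.42 (SE 0.14) had an edgeR adjusted p of 0.281 and was not called, and it was −0.27 without NTC 2. Lamp2, its close relative, was at 69.0 to 83.3 CPM against 66.7 and 74.6 CPM, and Mcoln1, which encodes a calcium channel of the lysosome, at 30.7 to 32.0 CPM against 34.8 and 31.1 CPM. Both overlapped. Macrophages are rich in lysosomes. Of their markers 3 were lower in every Fli1 KO library, without a call and near background at 0.85 to 1.40 times it. Adgre1 was at 7.26, 6.06 and 4.43 CPM in Fli1 KO and at 9.19 and 8.77 CPM in NTC. C1qa was at 0.404, 0.535 and 1.61 CPM against 2.08 and 2.30 CPM, and C1qb at 2.02, 1.78 and 1.81 CPM against 2.25 and 3.13 CPM. Cd68 (14.8 to 15.7 CPM against 14.6 and 10.2 CPM) and H2-Ab1 (19.4 to 30.3 CPM against 17.3 and 15.0 CPM) were higher in every Fli1 KO library, also without a call. Cd68 lay at 7.16 and H2-Ab1 at 5.30 times background. The part of such cells in the values of Sgsh and Lamp1 was not tested.

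All 4 genes of the vacuolar proton pump had a positive log2 fold change, with a median of 0.25 that was 0.11 with library size alone. None was called by edgeR, DESeq2 or limma-voom, and 1 had an unadjusted p under 0.05 by edgeR. Atp6v0e, which encodes a small subunit of the membrane sector, was at 54.7, 35.0 and 42.3 CPM in Fli1 KO and at 33.5 and 32.6 CPM in NTC. Each Fli1 KO library was higher, though Fli1 KO 2 only by a small margin. The means were 44.0 ± 9.96 (SD, n = 3) and 33.0 ± 0.617 CPM (SD, n = 2), with a log2 fold change of 0.41 (SE 0.17, edgeR adjusted p = 0.459). Atp6v0d1, also of the membrane sector, had the highest level per kb. It was at 36.3, 34.2 and 30.4 CPM in Fli1 KO and at 32.8 and 31.1 CPM in NTC, and the groups overlapped. The means were 33.7 ± 2.99 (SD, n = 3) and 31.9 ± 1.16 CPM (SD, n = 2), which gave a log2 fold change of 0.07 (SE 0.15, edgeR adjusted p = 0.937). Atp6v1a, of the catalytic subunit, was at 79.7, 54.0 and 64.1 CPM against 58.6 and 47.0 CPM, and Atp6v1h, of a regulatory subunit, at 67.0, 53.3 and 57.8 CPM against 50.5 and 54.5 CPM. Their log2 fold changes were 0.32 and 0.18, and the groups overlapped. Fli1 KO 1 was the highest of the 5 libraries for each of the 4 pump genes.

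Of the 3 TFEB family genes none was called by edgeR, DESeq2 or limma-voom, and 0 had an unadjusted p under 0.05 by edgeR. Tfeb was at 29.9, 30.1 and 29.4 CPM in Fli1 KO and at 31.0 and 28.8 CPM in NTC, so that NTC lay on both sides of Fli1 KO. The means were 29.8 ± 0.364 (SD, n = 3) and 29.9 ± 1.56 CPM (SD, n = 2), which gave a log2 fold change of −0.01 (SE 0.15, edgeR adjusted p = 0.996). Tfe3 was at 36.3, 33.2 and 33.2 CPM in Fli1 KO and at 41.4 and 41.2 CPM in NTC, at 2.55 times background. Its 3 Fli1 KO libraries were lower, with means of 34.2 ± 1.79 (SD, n = 3) and 41.3 ± 0.2 CPM (SD, n = 2) and a log2 fold change of −0.27 (SE 0.14, edgeR adjusted p = 0.602). Mitf, near background at 1.17 times it, was at 9.87 to 13.5 CPM against 7.98 and 13.6 CPM.

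**Figure D4:**
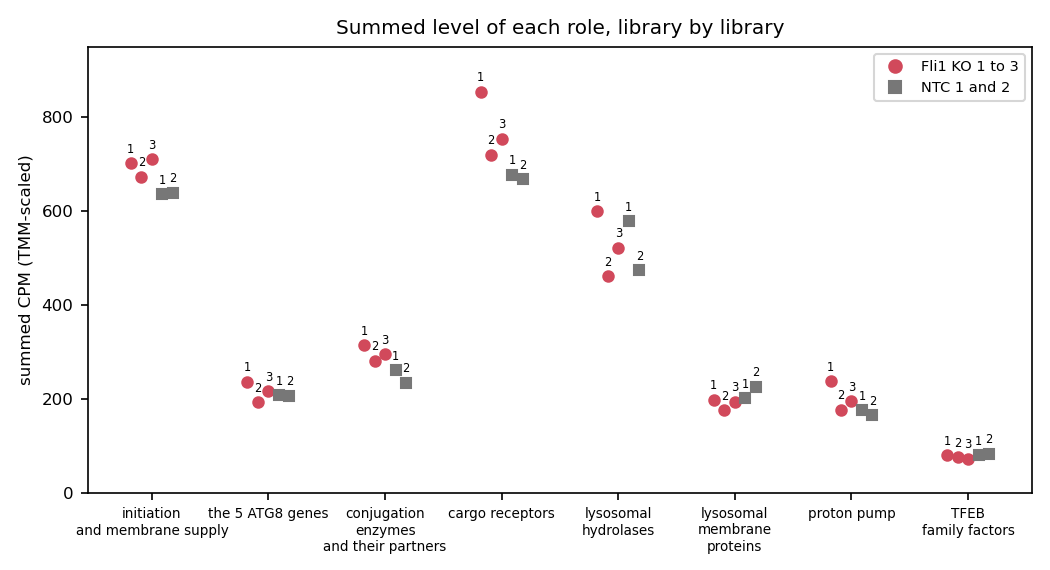
Summed TMM-scaled CPM of the genes of each role in every library, Fli1 KO as circles and NTC as squares, axis from 0. Initiation (673 to 711 against 636 and 640 CPM), conjugation and cargo receptor sums lie higher in Fli1 KO. Of these, only the conjugation sums do not overlap with library size alone. The lysosomal membrane sums lie lower, also with library size alone. Without Lamp1 they overlap with TMM but not with library size alone.

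Summed by role, the 12 initiation genes reached 673 to 711 CPM in Fli1 KO and 636 and 640 CPM in NTC, and the 7 conjugation genes 282 to 315 CPM against 261 and 235 CPM. The 5 cargo receptor genes reached 721 to 855 CPM against 678 and 668 CPM, and the 4 pump genes 177 to 238 CPM against 175 and 165 CPM. In these sums the groups did not overlap. Single genes over 3 times background were separated in 26.3% (higher) and 7.8% (lower), with a median log2 fold change of 0.11. No reference for sums of genes was made. With library size alone, a setting chosen here after seeing the data, only the conjugation genes stayed apart (280 to 284 CPM against 277 and 238 CPM), and the other 3 sums overlapped. That scaling also follows the counts of Gm10800, as said above. The 3 lysosomal membrane genes reached 176 to 198 CPM against 201 and 226 CPM, and the hydrolases without Ctsd 195 to 229 CPM against 240 and 238 CPM. Those sums were lower in every Fli1 KO library, but with TMM each turned on 1 gene. Without Lamp1 the membrane genes overlapped, at 101 to 114 CPM against 102 and 106 CPM. Without Sgsh as well as Ctsd the hydrolases did, at 168 to 206 CPM against 197 and 182 CPM. With library size alone both sums were again lower in every Fli1 KO library. The membrane genes then stayed lower without Lamp1, at 100 to 103 CPM against 108 and 107 CPM. The hydrolases without Ctsd and Sgsh overlapped there too. With TMM and with Ctsd, which held most of the counts, the hydrolases overlapped at 462 to 601 CPM against 579 and 474 CPM. The whole panel reached 3224, 2757 and 2960 CPM in Fli1 KO and 2819 and 2698 CPM in NTC, where the groups overlapped. Fli1 KO 1 was the highest library for 19 of the 46 genes (41.3%) and for 46.3% of genes over 3 times background, and NTC 2 was the lowest for 17 (37.0%) and for 48.6%. The part of these library differences in the results was not tested.

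A wider list of 121 further genes of the same pathway held no call by edgeR, DESeq2 or limma-voom. It held 14 genes with an unadjusted p under 0.05 by edgeR (11.6%). The log2 fold change was positive for 59 and negative for 62, with a median of −0.01. Of 12 further initiation genes 3 had an unadjusted p under 0.05. Wdr45b, a lipid binding relative of the WIPI genes, had means of 43.4 CPM in Fli1 KO and 31.3 CPM in NTC (log2 fold change 0.47, edgeR adjusted p = 0.289). Tmem41b had a log2 fold change of 0.42. Vmp1, whose product moves lipids at the endoplasmic reticulum as that of Tmem41b does, had means of 82.4 and 113 CPM (log2 fold change −0.46, edgeR adjusted p = 0.226).

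Of 14 further pump genes 2 had an unadjusted p under 0.05. Atp6v1e1, of a stalk subunit, was at 53.3, 45.5 and 46.3 CPM in Fli1 KO and at 37.1 and 30.7 CPM in NTC (log2 fold change 0.51, edgeR adjusted p = 0.194). Atp6v0c, of the ring subunit that carries protons, had a log2 fold change of 0.46 (edgeR adjusted p = 0.452). Both were separated with Fli1 KO higher, beside 11.9% of all tested genes and 26.3% of those over 3 times background. The further pump genes were positive in 8 of 14 with a median of 0.05. Of 19 further lysosomal membrane genes 3 had an unadjusted p under 0.05, with log2 fold changes of −0.43 for the tetraspanin gene Cd63, −0.87 for Laptm4b at 1.30 times background, and 0.43 for the peptide transporter gene Abcb9. Of 40 further hydrolase genes 5 did, 3 positive and 2 negative. Of 13 genes of the fusion machinery 1 did, Vps33a of the tethering complexes (log2 fold change −0.35, edgeR adjusted p = 0.402). None of 10 further receptor genes, 5 further ATG8 and conjugation genes or 8 further TFEB pathway genes did. Unlike the 7 conjugation genes of the panel, the 5 further ATG8 and conjugation genes were positive in 1 and negative in 4. Their median was −0.08.

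**Figure D5:**
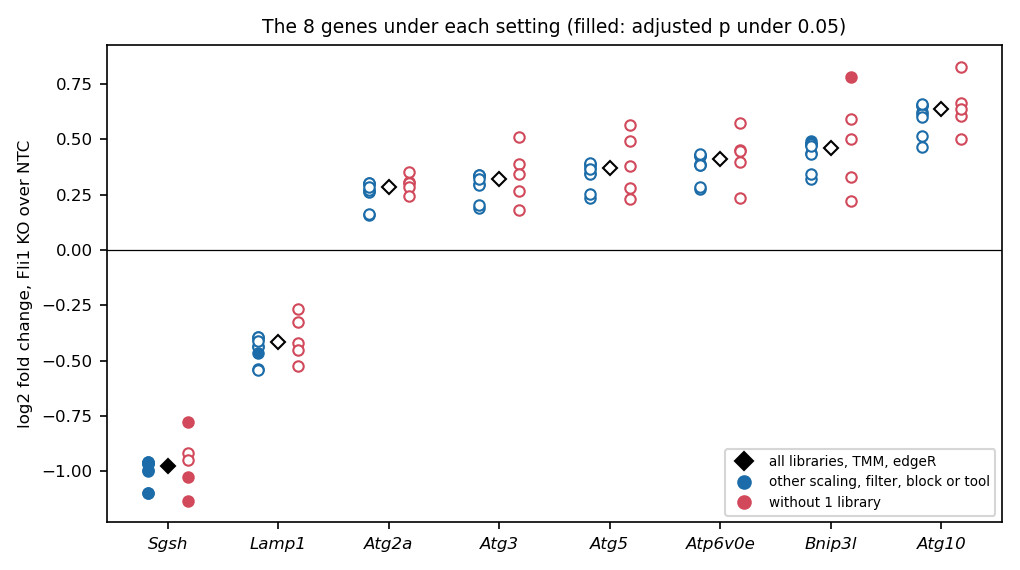
Log2 fold change of the 8 genes with an unadjusted p under 0.05 under each processing setting (diamond: all libraries, TMM and edgeR; blue: another scaling, filter, block or tool; red: 1 library left out), filled where the adjusted p is under 0.05. Sgsh stays between −1.13 and −0.78, and Bnip3l runs from 0.22 to 0.78.

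Over the 14 other settings tried, 26 of the 46 genes kept 1 sign in every fit that held them, and the 8 genes with an unadjusted p under 0.05 were among these. All fits reuse the same libraries, and the 8 were picked by p from the same counts, so a kept sign is no separate support. The share of all tested genes that kept 1 sign was not computed. The plot by setting shows that of these 8 only Sgsh, Bnip3l and Lamp1 were called under any setting.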

How the data were processed

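RNA-seq was measured in 3 Fli1 KO and 2 NTC libraries, grouped by their labels. Per the labels' protocols, libraries were made from 10 ng of total RNA with a kit that enriches transcripts by probes. Per the submitters' processing notes, FastQC 0.12.0, Trimmomatic 0.39, STAR 2.7.11 and mm10 were used. No source used here gives the counter, its strand setting or the annotation release. The table the authors deposited lists raw counts, in whole numbers, by Ensembl gene ID. It has 0 columns of other samples and no line for unassigned reads.

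Symbols came from a gene name table (52073 of 56691 IDs matched), and coordinates and exon lengths from GENCODE M21 on GRCm38. Genes passing edgeR's filterByExpr (minimum count 10) were scaled with TMM and tested with edgeR 4.0.16 in R 4.3.3 (quasi-likelihood test, robust), with Benjamini-Hochberg adjustment over all 30580 genes. The common biological coefficient of variation was 0.120. SE came from the coefficient and its F statistic. CPM means and SDs are over libraries. Background was the count density on 1453 autosomal olfactory and vomeronasal receptor genes, scaled to exon length. It was not tested whether this density holds for all genes under probe capture. Every pair of libraries differed by more than sampling noise. The fit was checked on simulated data.

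The members and lists were chosen with earlier results of these data known. Full values are given for called genes, genes with an unadjusted p under 0.05 and, per role, the genes with the smallest p and the highest CPM per kb. Of the further pathway genes, those with an unadjusted p under 0.05 are named where a role holds 4 or fewer. Alternatives were other scalings, filters and genes fitted, each library left out, limma-voom (limma 3.58.1), DESeq2 1.42.0 and a block for the replicate number. DESeq2 gave no adjusted p to 18379 of the 30580 genes, which it therefore could not call.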

Additional observations from a re-analysis of the deposited data

How the results depend on the processing

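The count of 1 called panel gene was the same with the other scalings and filters, in the fit on genes over 3 times background, and with DESeq2 and limma-voom. It ran from 0 to 2 with 1 library left out, at 0 without Fli1 KO 1 or Fli1 KO 3 and at 2 without NTC 1. Calls over all genes (167) ran from 49 to 877 in those fits and were 295 with no filter. Calls among the further pathway genes (0) ran from 0 to 5, and were 1 in the fit on genes over 3 times background (Vmp1). The panel's median log2 fold change (0.09) was −0.039 with library size alone and −0.033 in the fit on genes over 3 times background, and ran from 0.04 to 0.16 with 1 library left out. The cause of these shifts was not tested. With the replicate number as a block, 3 panel genes (Sgsh, Lamp1 at −0.47 and Bnip3l at 0.49), 9 further pathway genes and 921 genes in all were called. Deviations from the group means correlated at 0.20 (number 1) and 0.35 (number 2), but also at 0.19 for Fli1 KO 3 with NTC 1, which share no number. The deviations of 2 NTC libraries mirror each other, so only the sign of such a value depends on the NTC library taken. Only 2 numbers are shared and the labels tie them to no animal, so no pairing was used. Leaving out an NTC library leaves 1, which is then taken to vary like the Fli1 KO libraries. With 3 against 2 libraries, SEs of 0.13 to 0.27 limit what can be called, and no difference short of the threshold is shown to be absent.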

Other observations

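Bnip3, the relative of Bnip3l that also marks mitochondria for removal, had the widest ratio between the NTC libraries among the 121 further genes. It was at 86.6, 52.1 and 62.1 CPM in Fli1 KO and at 38.5 and 13.4 CPM in NTC. Every Fli1 KO library was higher, but the log2 fold change of 1.34 had an SE of 0.54 and an edgeR adjusted p of 0.600. The sphingomyelinase gene Smpd1 (39.4 and 20.5 CPM in NTC) and the sulfatase gene Arsb (354 and 221 CPM in NTC) also differed between the control libraries. Fli1 KO held 38.0 to 48.4 CPM of Smpd1 and 321 to 425 CPM of Arsb. Their log2 fold changes were 0.52 and 0.43, without a call.

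Of 8 further genes that act on or with TFEB factors, 4 were lower in all 3 Fli1 KO libraries than in both NTC libraries, where 13.7% of all tested genes and 7.8% of genes over 3 times background were. They were Flcn (log2 fold change −0.25), Fnip2 (−0.27), Rragc (−0.15) and Zkscan3 (−0.21). The first 3 belong to the machinery that reports nutrients at the lysosome, and Zkscan3 encodes a repressor of autophagy genes. None had an unadjusted p under 0.05 by edgeR, and Fnip2 lay at 1.13 times background. These genes, and those named above with the widest ratios, were picked after their values were seen.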
